A study of Mus musculus with 2 samples.

Results

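The genes described here encode the ligands, carriers, receptors, SMAD proteins, inhibitors and classic target genes of transforming growth factor beta (TGF-beta) and bone morphogenetic protein (BMP) signalling. They are a list of 42 gene symbols out of 23284 genes in the count files, and all 42 were found. Genes were taken by name, but the list was chosen with earlier results of these data known. RNA was sequenced from primary hepatocytes of C57BL/6 mice, liver cells kept in culture after isolation, in 1 library from cells infected with lentivirus carrying an shRNA against JMJD3 and 1 library from cells infected with control lentivirus. JMJD3, encoded by Kdm6b, is a demethylase of histone H3 lysine 27. Each library came from cells pooled from 5 mice, infected 24 h after plating for 48 h, and for the last 6 h both cultures were given forskolin (10 µM), which raises cyclic AMP, with 5 mM glucose, as a model of fasting. Uninfected cells and cells without forskolin were not analysed here.

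TGF-beta is secreted in a latent form held by latent TGF-beta binding proteins in the matrix. Once freed it joins a type II and a type I receptor, which phosphorylate SMAD2 and SMAD3, while BMPs act through other type I receptors on SMAD1, SMAD5 and SMAD9. Both branches share SMAD4 and induce their own inhibitors. In liver, TGF-beta is known for fibrosis and for restraint of hepatocyte growth, and BMP6 for control of the iron hormone hepcidin.

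The knockdown library held 18334366 counts and the control library 11099562, and Kdm6b was at 33.0 CPM (read counts scaled to library size by TMM) in the knockdown library against 90.7 CPM in the control library, from 598 and 1019 counts. A gene was taken as measured at a mean of at least 1 CPM over both libraries, which left 12607 genes. No replicate spread can be measured from 1 library per group and no test was run, so a rule of size stands in: a gene is called higher or lower when the ratio of knockdown over control is at least 1.5-fold from 1 and its exact binomial 95% interval excludes 1. All intervals below cover counting error only, and are too narrow because both reads of a pair were counted. Hepatocyte markers were abundant, led by Trf at 4254 CPM in the knockdown library and 4282 CPM in the control library, although Apoa1 was at 2.93 and 3.29 CPM. Of 7 hepatocyte markers found, all measured, Apob was higher, and Alb, Ttr and Serpina1a, named after their values were seen, were lower. In all, 6 of the 7 had a ratio below 1, and their median log2 ratio over the 7 was -0.57. The rule called 15.3% of all measured genes higher and 12.8% lower. Albumin (Alb) stood at 794 CPM in the knockdown library and 1519 CPM in the control library. In bulk RNA, fewer cells of a type and less RNA per cell cannot be told apart.

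Of the 42 members 37 were measured, and 15 were higher and 6 lower in the knockdown library, while 16 did not pass the rule. Across all 12607 measured genes the same rule called 15.3% higher and 12.8% lower. The median log2 ratio of the measured members was 0.43, against -0.0039 for all measured genes. At a 2-fold threshold 8 members were higher and 4 lower, with 7.35% and 6.19% of all measured genes as the background. The higher members were the TGF-beta ligands Tgfb1, Tgfb2 and Tgfb3, the matrix proteins Ltbp1, Ltbp2 and Ltbp4, the receptors Acvr1 and Bmpr2, Smad2, and the inhibitors Smad7, Ski, Skil, Tgif1 and Smurf1, with the target gene Id1. The lower members were Bmp4, Bmp7, Tgfbr1, Bambi, Id2 and Id3. Of these, Bmp7 passed the filter through the control library alone, where it was high. With a minimum mean of 5 CPM, 5 members were lower.

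**Figure D1:**
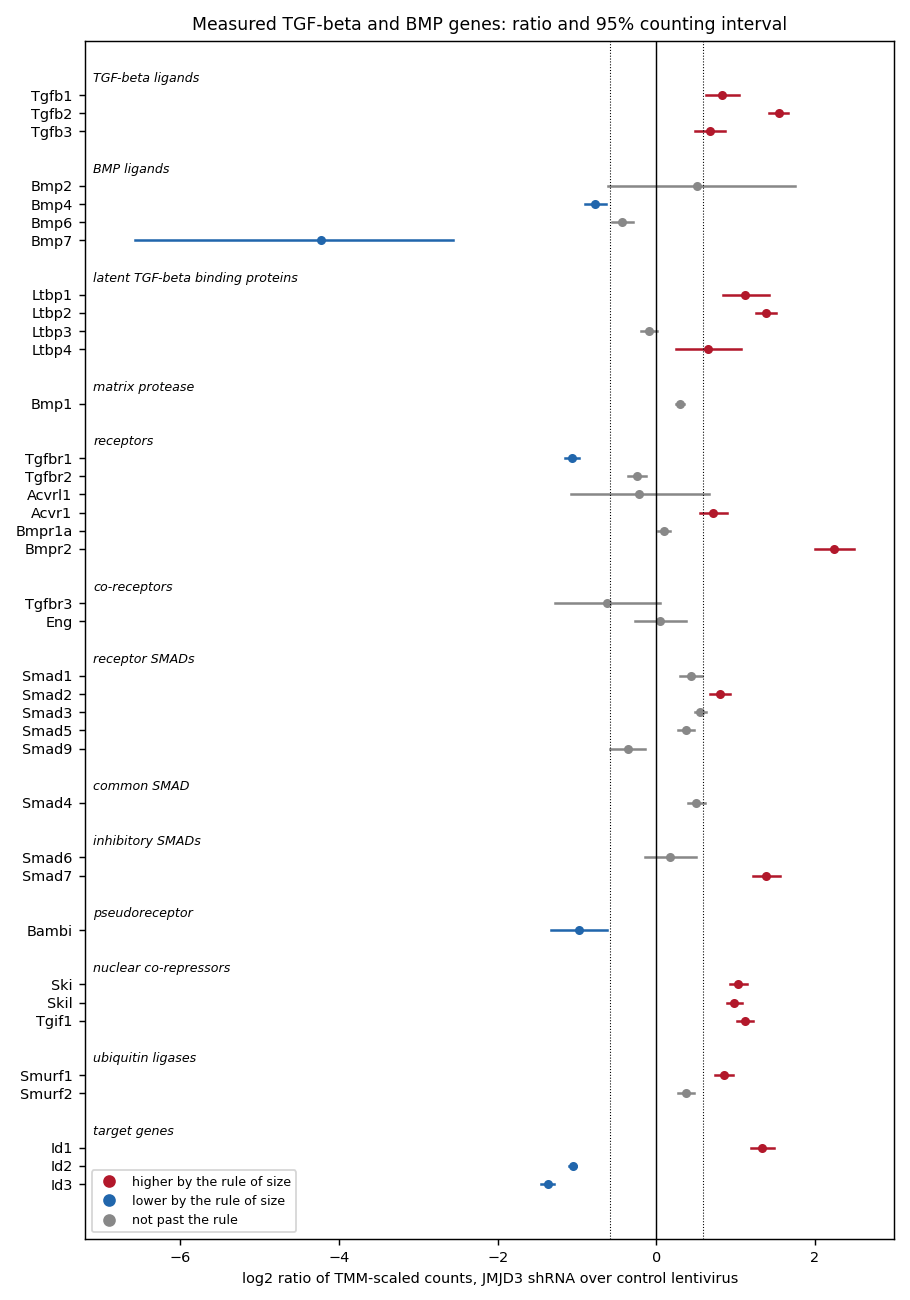
Log2 ratio of JMJD3 shRNA over control lentivirus (horizontal axis) for the 37 measured members, grouped by role, 1 library per group. Points are ratios, bars are exact 95% counting intervals, dotted lines mark 1.5-fold, red is higher, blue lower and grey not past the rule. All 3 TGF-beta ligands and all 3 nuclear co-repressors lie right of the upper dotted line, and Bmpr2 is farthest right at 2.24. Bmp7, which passed the filter through the control library alone, is farthest left at -4.23.

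Promoter windows of 250 bases before to 50 after the transcription start were taken from a table of RefSeq sequences (GRCm38.p6), in which 41 windows matched 29 of the 42 members. Id1 is among the 13 members with no window there. They are in a later genome build than the mm9 gene models of the counts. The pair with the highest ratios, Bmpr2 and Tgfb2, and the pair of Id genes with low ratios, Id2 and Id3, are shown so that windows of genes that moved alike can be set side by side. Sequences run 5′ to 3′ along the gene, and capitals mark GGCGCC, the BMP SMAD element, or GTCTG, a short SMAD site (CAGAC on the other strand). The windows are chr1:59764029-59764328 (plus strand) for Bmpr2, chr1:186705940-186706239 (minus) for Tgfb2, chr12:25096043-25096342 (minus) for Id2 and chr4:136143572-136143871 (plus) for Id3.
Bmpr2: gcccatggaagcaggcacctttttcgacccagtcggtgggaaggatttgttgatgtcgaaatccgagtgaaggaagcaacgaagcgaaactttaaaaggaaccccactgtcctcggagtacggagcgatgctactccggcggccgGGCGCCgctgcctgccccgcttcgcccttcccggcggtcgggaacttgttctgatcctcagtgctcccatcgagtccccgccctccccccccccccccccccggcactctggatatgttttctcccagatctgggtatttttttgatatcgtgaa
Tgfb2: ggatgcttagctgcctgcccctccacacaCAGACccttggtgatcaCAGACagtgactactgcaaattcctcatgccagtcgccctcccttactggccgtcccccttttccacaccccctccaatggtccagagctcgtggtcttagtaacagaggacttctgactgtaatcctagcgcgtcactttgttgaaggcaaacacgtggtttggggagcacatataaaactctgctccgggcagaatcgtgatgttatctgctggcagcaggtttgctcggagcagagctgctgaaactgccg
Id2: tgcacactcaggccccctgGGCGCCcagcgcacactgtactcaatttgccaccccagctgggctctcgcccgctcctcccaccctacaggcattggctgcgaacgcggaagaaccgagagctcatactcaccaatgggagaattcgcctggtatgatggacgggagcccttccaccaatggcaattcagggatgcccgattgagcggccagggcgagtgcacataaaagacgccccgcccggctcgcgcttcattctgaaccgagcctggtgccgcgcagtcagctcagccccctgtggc
Id3: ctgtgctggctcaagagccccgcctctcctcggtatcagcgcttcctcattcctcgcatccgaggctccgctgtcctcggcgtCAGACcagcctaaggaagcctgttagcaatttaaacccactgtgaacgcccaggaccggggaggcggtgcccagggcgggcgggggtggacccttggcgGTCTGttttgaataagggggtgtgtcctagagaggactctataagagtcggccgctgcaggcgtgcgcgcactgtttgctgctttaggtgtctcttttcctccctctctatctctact

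Bmpr2 and Id2, which moved in opposite directions, each held 1 GGCGCC, and Tgfb2 and Id3, which also moved in opposite directions, each held 2 copies of GTCTG. On either strand, GGCGCC was in 14 of the 41 member windows (34.1%) and in 11.9% of all 32851 windows, and member windows were richer in G and C, at a median of 64.0% against 52.7%. It was in 3 of the 10 higher members that had a window (Bmpr2, Ltbp4 and Ski), in 2 of the 4 lower ones (Id2 and Tgfbr1), in 4 of the 11 that did not pass the rule (Bmpr1a, Smad5, Smad9 and Smurf2) and in 3 of the 4 not measured (Grem1, Id4 and Tgfbi). GTCTG was in 48.8% of member windows and 49.6% of all windows. The cyclic AMP element TGACGTCA was in 1 member window, of Ltbp1, and in 1.79% of all windows, and the AP-1 element TGANTCA in 1, of Ltbp3, and in 7.81%. GGCGCC followed after 5 bases by GTCT, a form of BMP response element, was in 0 member windows and in 0.0731% of all windows. Different motifs overlapped in 1 member window.

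The palindromic SMAD element GTCTAGAC was in 1 member window and in 0.213% of all windows. It lies in the promoter of Smad6, an inhibitor that BMP signalling induces, and the 60 bases around it (chr9:64022030-64022089, minus strand, GRCm38.p6) are shown with the element in capitals because Smad6 is a feedback gene.
Smad6: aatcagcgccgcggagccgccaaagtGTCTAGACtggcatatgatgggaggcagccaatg
Smad6 itself had 12.8 CPM in the knockdown library and 11.3 CPM in the control library, a log2 ratio of 0.18 (-0.14 to 0.50), so no difference beyond counting error was detectable.

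All 3 TGF-beta ligands were higher in the knockdown library, as were 15.3% of all measured genes. Tgfb2, a ligand that needs the co-receptor betaglycan for strong binding, had 3217 counts (178 CPM) in the knockdown library against 686 counts (61.04 CPM) in the control library. Its ratio was 2.91 (2.68 to 3.17), and 97.1% of all measured genes had a lower ratio. Tgfb1, the form most studied in liver fibrosis, had 721 counts (39.8 CPM) against 252 counts (22.4 CPM), a ratio of 1.78 (1.54 to 2.06). Tgfb3 had 828 counts (45.7 CPM) against 321 counts (28.6 CPM), a ratio of 1.60 (1.41 to 1.83). No interval of the 3 ratios reached 1, and that of Tgfb2 lay above the other two. In mm9 coordinates the 7 exons of Tgfb2 span 188447065 to 188529871 on chromosome 1, minus strand.

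Summed over the 3 ligands, the knockdown library held 4766 counts (263 CPM) and the control library 1259 counts (112 CPM). Tgfb2 made up 67.5% (66.1 to 68.8, exact binomial) of these counts in the knockdown library and 54.5% (51.7 to 57.3) in the control library. Levels per kb of exon allow genes to be compared within a library. Tgfb2 stood at 37.6, Tgfb1 at 19.0 and Tgfb3 at 13.5 CPM per kb in the knockdown library. In the control library the same order held with smaller gaps, at 12.9, 10.7 and 8.44 CPM per kb. Values per kb, here and below, are not corrected for the trend of the ratio with exon length described below.

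Among the BMP ligands 0 of 4 were higher and 2 were lower, of which Bmp7 passed the filter through the control library alone. The rule called 15.3% of all measured genes higher and 12.8% lower. Bmp4 had 909 counts (50.2 CPM) in the knockdown library against 962 counts (85.6 CPM) in the control library, a log2 ratio of -0.77 (-0.90 to -0.64). Its exons share 86 bp with a gene model on the same stretch, Gm15217, so reads there could be left uncounted. Bmp6, the ligand that sets hepcidin in liver and is made there mainly by endothelial cells, had 56.6 CPM against 76.4 CPM, a log2 ratio of -0.43 (-0.57 to -0.30) that did not pass the rule.

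Bmp7 was the lowest of all members, with 3 counts in the knockdown library against 35 in the control library. The ratio was 0.053 with a wide interval of 0.010 to 0.169, and the gene passed the filter only through the control library (3.11 CPM). Bmp2, which acts with Bmp6 on hepcidin, had 23 counts against 10, a log2 ratio of 0.51 (-0.61 to 1.75), and passed the filter only through the knockdown library. Summed, the 4 ligands stood at 108 CPM in the knockdown library against 166 CPM in the control library, a ratio of 0.652 (0.612 to 0.695). The TGF-beta ligands had a ratio of sums of 2.35 (2.21 to 2.502). The intervals of the sums did not overlap, but they cover counting error in 1 library per group only. Each sum rests mostly on few genes. In the knockdown library Tgfb2 made up 67.5% of the TGF-beta ligand counts. Bmp4 and Bmp6 made up 46.4% and 52.3% of the BMP ligand counts there.

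Of the 4 latent TGF-beta binding proteins 3 were higher and 0 lower, beside 15.3% and 12.8% of all measured genes. Ltbp2, a matrix protein that unlike its relatives does not bind latent TGF-beta, had 2661 counts (147 CPM) in the knockdown library against 632 counts (56.2 CPM) in the control library. Its log2 ratio was 1.39 (1.26 to 1.51), though 694 bp (10.5%) of its exons are shared with D030025P21Rik. Ltbp1, the main carrier of TGF-beta1, had 449 counts (24.8 CPM) against 128 counts (11.4 CPM), a log2 ratio of 1.12 (0.84 to 1.42). Ltbp4 had 179 counts against 71, a log2 ratio of 0.65 (0.24 to 1.06), and did not pass once the trend of the ratio with exon length described below was removed (0.43). Ltbp3 was at 112 CPM against 119 CPM, a log2 ratio of -0.09 (-0.20 to 0.0060). The make-up of the family differed between the libraries: Ltbp2 took 50.1% (48.8 to 51.5) of its counts in the knockdown library and 29.1% (27.2 to 31.1) in the control library, and Ltbp3 took 38.0% (36.7 to 39.4) and 61.7% (59.6 to 63.8).

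Bmp1 is not a ligand but a protease that trims procollagens and helps to free TGF-beta from its carrier. It was the second most abundant member per exon length in the knockdown library and the third in the control library. It had 10752 counts (594 CPM) in the knockdown library against 5429 counts (483 CPM) in the control library, and its log2 ratio of 0.30 (0.25 to 0.34) did not pass the rule.

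**Figure D2:**
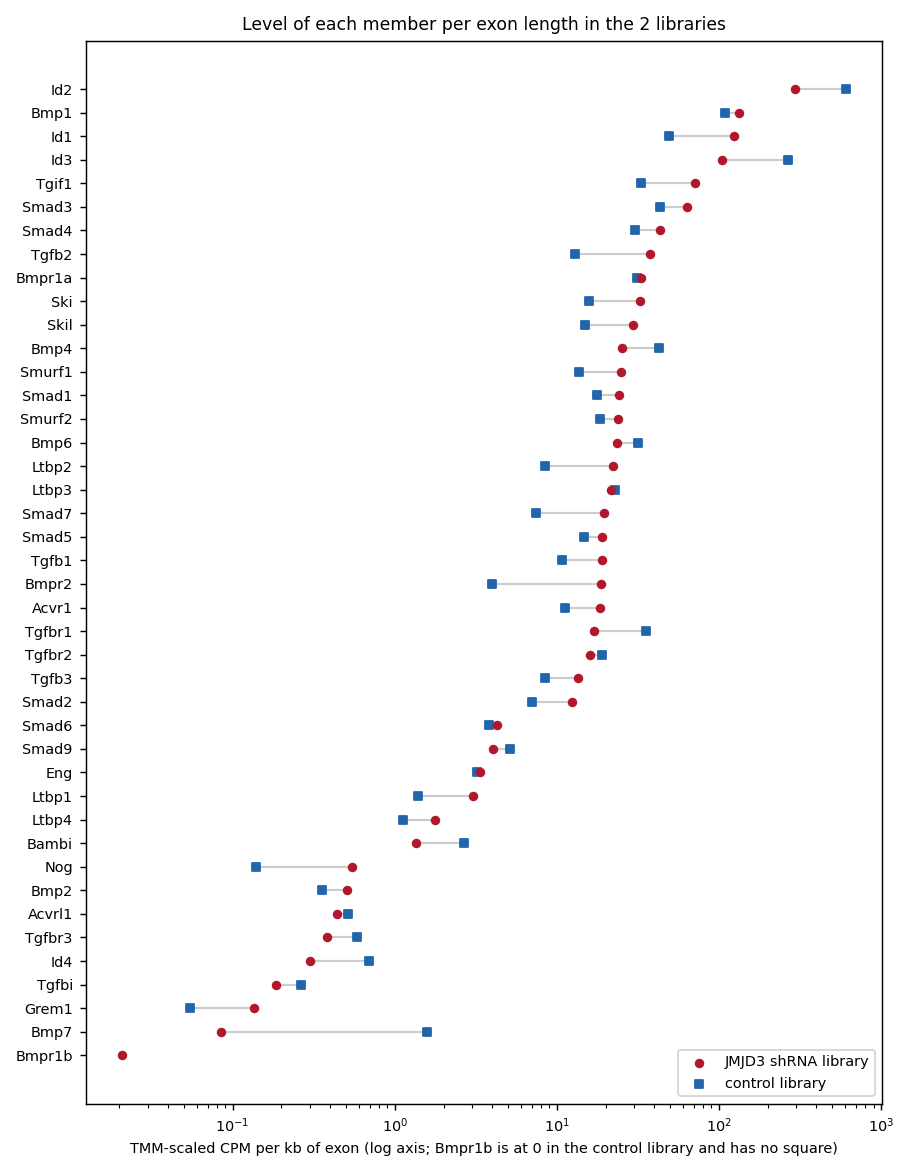
TMM-scaled CPM per kb of exon (horizontal log axis) of all 42 members in the JMJD3 shRNA library (red circles) and the control library (blue squares), ordered by the knockdown level, 1 library per group. Id2 leads in both, at 293 and 610 CPM per kb. Bmpr1b, with 2 and 0 counts, is lowest and has no control square.

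The type I and type II receptors did not move together. Bmpr2, the type II receptor of BMPs, had 1191 counts (65.8 CPM) in the knockdown library against 157 counts (14.0 CPM) in the control library. Its ratio of 4.71 (3.98 to 5.60) was the highest of all measured members, and 99.0% of all measured genes had a lower ratio. Tgfbr1, the type I receptor of TGF-beta, had 1732 counts (95.7 CPM) against 2251 counts (200 CPM), a ratio of 0.478 (0.448 to 0.509). Tgfbr2, the type II receptor that recruits it, had 76.7 CPM against 90.8 CPM, a log2 ratio of -0.24 (-0.36 to -0.13) that did not pass. In mm9 Bmpr2 lies on the plus strand of chromosome 1 from 59821481 to 59927703 and Tgfbr1 on the plus strand of chromosome 4 from 47366177 to 47427796.

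Of the type I receptors that serve BMPs, Acvr1 had 1108 counts (61.2 CPM) in the knockdown library against 418 counts (37.2 CPM) in the control library, a log2 ratio of 0.72 (0.55 to 0.88), and was higher. Bmpr1a was at 183 CPM against 171 CPM, a log2 ratio of 0.10 (0.01 to 0.18), and turned to -0.12 with the length trend removed. Bmpr1b had 2 counts in the knockdown library and 0 in the control library, both at or under the floor of 3 counts, so no ratio is given. Per kb of exon the level of Bmpr2 was 0.563 of that of Bmpr1a in the knockdown library and 0.128 in the control library. The level of Tgfbr1 per kb was 1.05 times that of Tgfbr2 in the knockdown library and 1.86 times in the control library.

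Acvrl1 and the co-receptors Eng and Tgfbr3 had low counts. Acvrl1, a type I receptor used mainly by endothelial cells, had 29 counts in the knockdown library and 21 in the control library, a log2 ratio of -0.22 (-1.08 to 0.66). The co-receptor Eng, also an endothelial gene, was at 11.9 and 11.6 CPM, and shares 61 bp with Fpgs. Betaglycan, Tgfbr3, had 42 and 40 counts, a log2 ratio of -0.62 (-1.28 to 0.04). Beside Acvrl1 and Eng, the 10 endothelial markers summed to 48.8 CPM in the knockdown library and 51.7 CPM in the control library. Of 8 markers measured 1 was higher and 2 lower, beside 15.3% and 12.8% of all measured genes. Cdh5, the most abundant marker, was at 15.9 and 18.2 CPM. The part of endothelial cells in the receptor values was not tested.

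**Figure D3:**
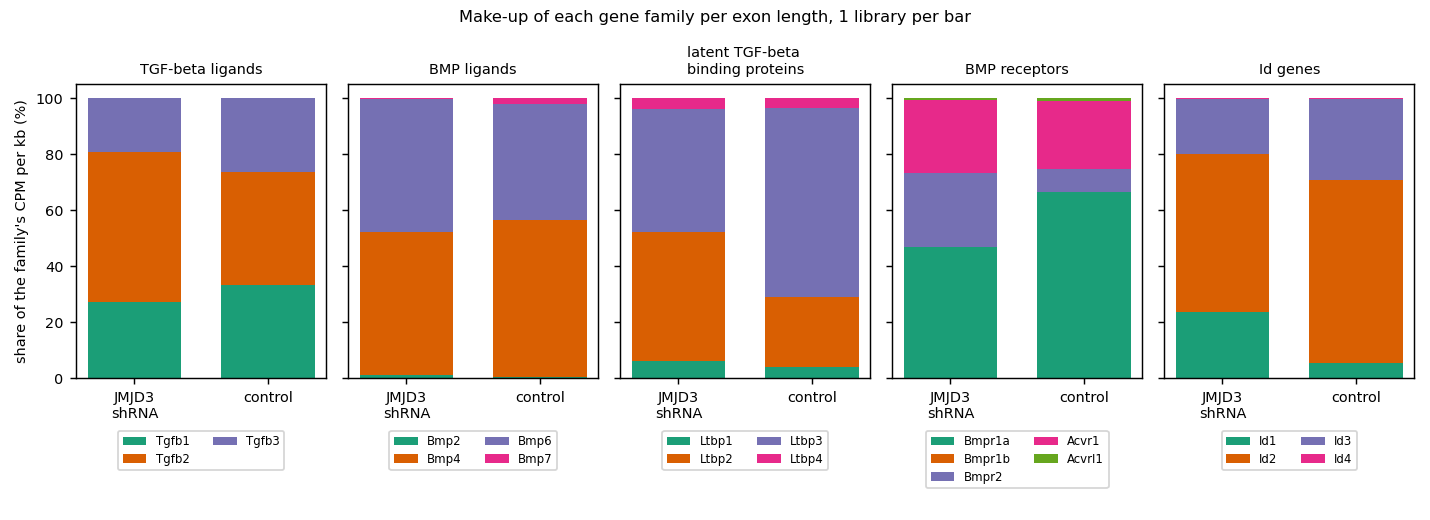
Share of each gene in the summed CPM per kb of its family (vertical axis, %), with the JMJD3 shRNA library left and the control library right in each panel, 1 library per bar. Per kb, Bmpr2 takes 26.4% of the BMP receptors in the knockdown library and 8.49% in the control library, and Id1 takes 23.8% and 5.29% of the Id genes.

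Of the 5 receptor-regulated SMADs, the transcription factors that receptors phosphorylate, 1 was higher and 0 lower. The shares of all measured genes were 15.3% and 12.8%. Smad2, of the TGF-beta branch, had 2042 counts (113 CPM) in the knockdown library against 726 counts (64.6 CPM) in the control library, a log2 ratio of 0.80 (0.68 to 0.93). It did not pass with the length trend removed (0.39), and its 9142 bp of exon make it the longest member. Smad3, its partner and the most abundant SMAD per exon length, had 5878 counts (325 CPM) against 2486 counts (221 CPM), and its ratio of 1.47 (log2 0.55, interval 0.49 to 0.62) was just short of 1.5-fold. The SMADs of the BMP branch, none of which passed, were Smad1 at a log2 ratio of 0.43, Smad5 at 0.37 and Smad9 at -0.36. Smad4, common to both branches, was at 144 CPM against 102 CPM, a log2 ratio of 0.50 (0.40 to 0.61) that did not pass.

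Of 8 feedback genes and inhibitors acting inside the cell or at its surface, 5 were higher and 1 lower. Among all measured genes the shares were 15.3% higher and 12.8% lower. The median log2 ratio of the 8 genes was 0.92, and 0.67 with the length trend removed. Smad7, which blocks TGF-beta receptors and is itself a target of TGF-beta, had 1575 counts (87.0 CPM) in the knockdown library against 374 counts (33.3 CPM) in the control library. Its ratio was 2.61 (2.33 to 2.93), and 96.3% of all measured genes had a lower ratio. Smad7 stood at 4.56 times the per-kb level of Smad6 in the knockdown library and 1.97 times in the control library.

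The nuclear co-repressors, which bind SMADs and silence their targets, had close ratios. Ski had 3205 counts (177 CPM) in the knockdown library against 972 counts (86.5 CPM) in the control library, a ratio of 2.05 (1.90 to 2.20). Skil, also called SnoN and a target of TGF-beta, had 3602 counts (199 CPM) against 1132 counts (101 CPM), a ratio of 1.98 (1.85 to 2.11). Tgif1, a homeodomain repressor, had 3461 counts (191 CPM) against 991 counts (88.2 CPM), a ratio of 2.168 (2.02 to 2.33). The 3 intervals overlapped each other, and the summed level was 567 CPM against 275 CPM.

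Smurf1, a ubiquitin ligase that sends SMADs and receptors for breakdown, had 2407 counts (133 CPM) in the knockdown library against 827 counts (73.6 CPM) in the control library, a log2 ratio of 0.85 (0.74 to 0.97). Its relative Smurf2 was at 127 CPM against 98.2 CPM, a log2 ratio of 0.37 (0.27 to 0.48) that did not pass. Bambi, a receptor without a kinase domain that dampens signalling, was the feedback gene that was lower, with 124 counts (6.85 CPM) against 151 counts (13.4 CPM) and a log2 ratio of -0.97 (-1.33 to -0.62). The secreted BMP antagonists had few counts. Nog had 19 counts against 3, a ratio of 3.93 (1.16 to 20.7), and Grem1 had 4 counts against 1, and neither was measured.

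The Id genes, which encode dimerisation partners without a DNA-binding domain and are classic BMP targets, divided. Id1 had 2044 counts (113 CPM) in the knockdown library against 503 counts (44.8 CPM) in the control library, a ratio of 2.52 (2.29 to 2.79). Id2 had 6753 counts (373 CPM) against 8720 counts (776 CPM), a ratio of 0.481 (0.466 to 0.496). Id3 had 1792 counts (99.0 CPM) against 2878 counts (256 CPM), a ratio of 0.386 (0.364 to 0.410). The intervals of Id2 and Id3 lay wholly below 1 and that of Id1 wholly above it. Id4 had 9 and 13 counts and was not measured.

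Id1 took 19.3% (18.5 to 20.1) of all Id counts in the knockdown library and 4.15% (3.80 to 4.52) in the control library. Per kb of exon, Id1 was at 1.19 times the level of Id3 in the knockdown library and 0.183 times in the control library, so their order differed between the libraries. Id2 remained the most abundant Id gene in both. Id1 lies on the plus strand of chromosome 2 from 152562010 to 152563146 and Id3 on the plus strand of chromosome 4 from 135699737 to 135701307 in mm9. Tgfbi, a matrix protein named for its induction by TGF-beta, had 9 and 8 counts and was not measured.

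Other targets of each branch were set beside the members, from lists chosen with results of these data known. Of 25 further TGF-beta targets known from other cell types, all measured, 17 were higher and 0 lower, with a median log2 ratio of 1.02. Over all measured genes 15.3% were higher and 12.8% lower, with a median of -0.0039. Of the 17, Mmp2 passed the filter through the knockdown library alone. Thbs1, Mmp2, Pmepa1 and Snai1, all higher, are each counted again in another list of pathway genes. The most abundant were the matrix protein Fn1, at 7200 CPM in the knockdown library against 4251 CPM in the control library (log2 0.76), and the filament protein Vim, at 2059 CPM against 846 CPM (log2 1.28). Ctgf was the highest, at 5.62, and the protease inhibitor Timp1 the lowest, at -0.30. The fibrillar collagens Col1a1 and Col1a2, named after their values were seen, stood at 0.03 and -0.23 and did not pass.

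Of 12 further BMP targets, which include Smad6 and Smad7, 11 were matched and 9 measured, with 2 higher, 3 lower and a median of 0.18. The shares over all measured genes were 15.3% higher and 12.8% lower. Hamp, which encodes hepcidin and has a close copy in the mouse genome that makes its count uncertain, was at 259 CPM in the knockdown library against 545 CPM in the control library, a log2 ratio of -1.07 (-1.13 to -1.02). Atoh8, a transcription factor linked to hepcidin control, was at 76.8 CPM against 165 CPM, a log2 ratio of -1.11 (-1.21 to -1.01). The lowest was Hey1, at -1.81 on 29 and 63 counts, and the highest Tnfrsf11b, at 1.59 on 29 and 6 counts, which passed the filter through the knockdown library alone. The other higher gene is the member Smad7.

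Genes that anchor or free latent TGF-beta were measured in 13 of 14 cases, with 5 higher and 1 lower and a median of 0.35. Among all measured genes 15.3% were higher and 12.8% lower. Of the 5 higher genes 2, Itgb6 (30 and 7 counts) and Mmp2 (41 and 11 counts), passed the filter through the knockdown library alone. Thbs1, a matrix protein that activates latent TGF-beta, was the highest, at 592 CPM in the knockdown library against 63.6 CPM in the control library (log2 3.22, interval 3.11 to 3.33). It is also counted among the TGF-beta targets above. The abundant crosslinker Tgm2 and protease Mmp14 stood at -0.06 and -0.01, and Lrrc33, which anchors latent TGF-beta on myeloid cells, was the lowest at -1.15 (-1.85 to -0.46) on 32 and 44 counts. The integrin subunit Itgav, named after its values were seen, was at 270 CPM against 124 CPM (log2 1.12).

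Further BMP and GDF ligands and BMP antagonists were measured in 9 of 20 cases, with 1 higher, 4 lower and a median of -0.71. Over all measured genes 15.3% were higher and 12.8% lower. Of the 4 lower genes 2 passed the filter through the control library alone. Twsg1, which binds BMPs outside the cell, was the most abundant, at 137 CPM in the knockdown library against 201 CPM in the control library (log2 -0.56). Gdf15, a stress hormone, was at 63.0 CPM against 28.4 CPM (log2 1.15). Of the hemojuvelin family, BMP co-receptors, and their receptor neogenin, 0 of 3 measured passed, with neogenin (Neo1) at 0.38, Rgmb at 0.33 and Rgma, which shares 255 bp with A730056A06Rik, at -0.23.

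**Figure D4:**
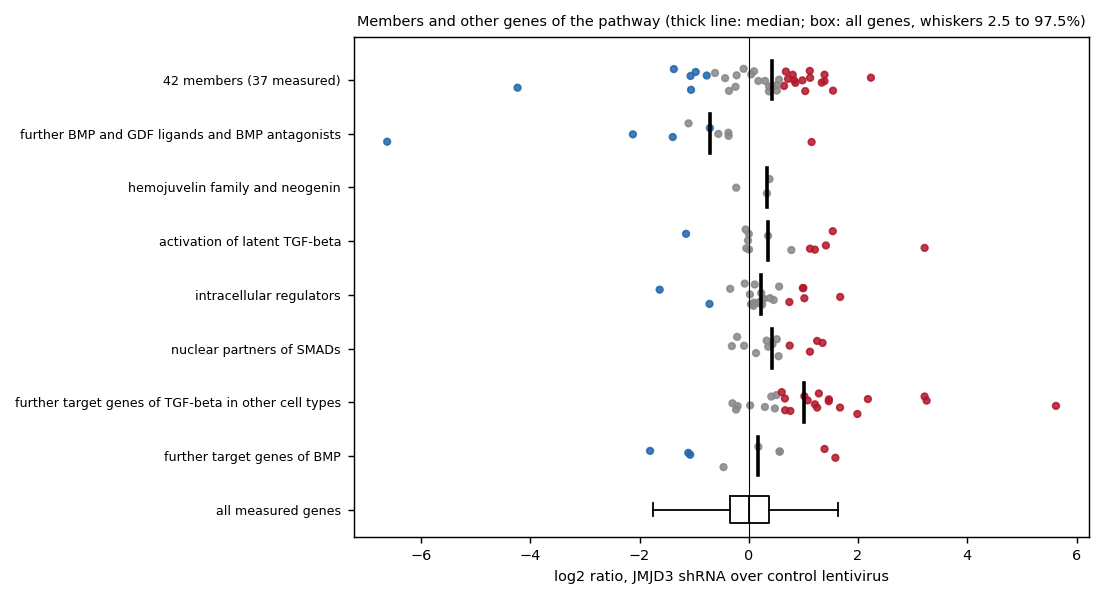
Log2 ratio of JMJD3 shRNA over control lentivirus (horizontal axis) for the measured members and for 7 lists of other pathway genes. Points are genes (red higher, blue lower, grey not past the rule; vertical scatter has no meaning), thick lines are medians, and the box shows all 12607 measured genes. The TGF-beta targets have the rightmost median, 1.02, and the further BMP ligands and antagonists the leftmost, -0.71.

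Other cell types of liver can make TGF-beta and BMP ligands. The 10 stellate cell markers summed to 160 CPM in the knockdown library and 157 CPM in the control library, with 2 lower and 0 higher of 7 measured. For these and the marker counts that follow, the shares over all measured genes were 15.3% higher and 12.8% lower. Col1a1 and Acta2 made up 147 CPM of the knockdown sum and 131 CPM of the control sum, and the other 8 markers summed to 13.6 CPM in the knockdown library and 26.9 CPM in the control library. The lower markers were Pdgfrb, at -0.82, and Reln, at -3.74 on 17 and 141 counts, and Lrat, which defines resting stellate cells, had 2 counts and 1 count. The 8 macrophage markers matched summed to 28.9 CPM in the knockdown library and 27.5 CPM in the control library, with 0 of 6 measured past the rule and Clec4f at 0 in both. The 6 cholangiocyte markers summed to 8432 CPM and 8098 CPM, nearly all Spp1, with 3 higher (Krt7 at 1.65, Krt19 at 0.60 and Sox9 at 0.59, named after their values were seen) and 0 lower. Blood markers summed to 2.87 and 3.29 CPM, and Cd3e was at 0 in both. Their part in the members' ratios was not tested.

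Ratios rose with exon length across all genes, from a median log2 of -0.28 in the shortest of 5 equal length groups to 0.28 in the longest, which held 16 of the 37 measured members. Those 16 had a median of 0.46. With the length trend removed 13 members were higher and 7 lower, against 13.2% and 12% of all measured genes, and the members' median was 0.37. Ltbp4 and Smad2 then no longer passed as higher, and Tgfbr3 passed as lower, at -0.87.

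**Figure D5:**
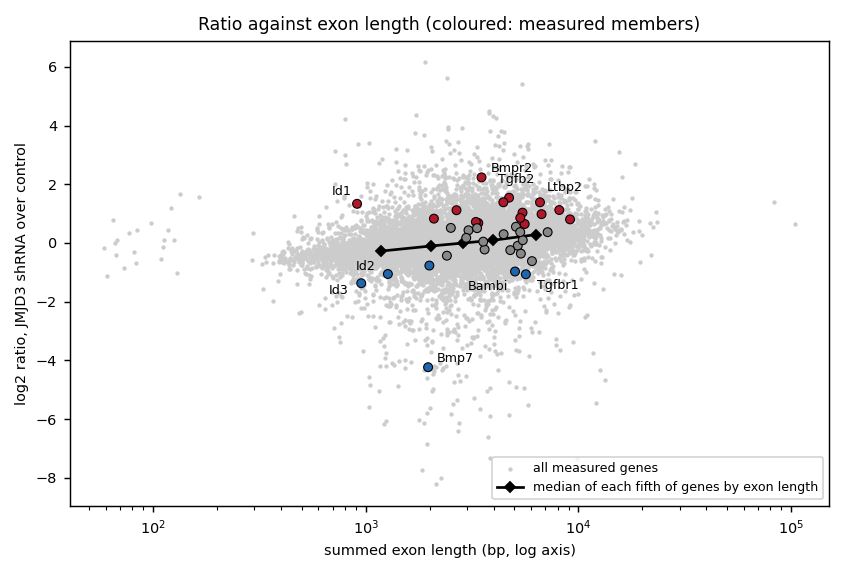
Log2 ratio of JMJD3 shRNA over control lentivirus (vertical axis) against summed exon length in bp (log axis). Light grey dots are all 12607 measured genes, diamonds their median in 5 length groups at the group's median length, and outlined circles the 37 members (red higher, blue lower, grey not past the rule). The diamonds rise from -0.28 to 0.28; Id1 lies above and Id2 and Id3 below the shortest group's diamond.

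The authors' deposited table, for which neither the test nor the assumed spread is given in the sources used here, listed 39 of the members. At an adjusted p under 0.05 it had 15 members higher and 6 lower, against 14.6% higher and 11.8% lower of its 12838 genes, and 20 of these 21 also passed the rule of size. Smad3, with an adjusted p-value of 0.0323 in the authors' deposited table, is the one outside the rule, while Ltbp4, at 0.0908 there, passed the rule. The log2 values of Bmpr2 and Bmp7 in the authors' deposited table were 2.23 (adjusted p = 9.25e-19) and -4.16 (adjusted p = 7.10e-09).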

How the data were processed

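The deposited counts are whole-number reads per gene, and featureCounts 1.4.6-p4 produced them from UCSC mm9 gene models, without strand and with no option for counting pairs, per the file headers. Each read of a 100 bp pair was thus counted on its own, and reads in several genes or places are left out by default, so intervals are too narrow. Per the submitters' processing notes, Trimmomatic 0.36, STAR 2.5.3a and edgeR were used. The authors' deposited table gives log2 fold changes, average log2 CPM, p-values and adjusted p-values, and its fold change had the sign of knockdown over control in 12600 of 12600 measured genes compared.

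Here counts were scaled by TMM (edgeR 4.0.16, R 4.3.3). Ratios have no pseudocount and carry Clopper-Pearson 95% intervals (scipy 1.17.1). For a count of 0 the floor was 3 counts. Alternatives were library totals, DESeq2 1.42.0 and upper-quartile scaling, filters, halved counts and a lowess correction for exon length. The ratio, interval and rule of size were tried on simulated counts with counting error alone. These held no spread between cultures and no double counting of read pairs, so they cannot show how the rule fares with either. Every member is accounted for, and in other lists the 2 most abundant genes, the highest and the lowest are named. Some results that this rule would name are not reported here. The members and lists were chosen with earlier results of these data known. Promoter windows on chromosome 18 were left out.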

Additional observations from a re-analysis of the deposited data

How the results depend on the processing

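Each value rests on 1 library per group, so nothing here measures the spread between cultures. No paired analysis was possible because each group has 1 library. Part of the comparison could not differ: a filter cannot change a member's ratio or interval, and halved counts cannot change its ratio. The authors' deposited values rest on the same 2 libraries. With all of these included, 285 of 292 values of single members kept their direction and their side of the rule of size. The rest were Ltbp4 and Smad2 (no longer past it) and Tgfbr3 (now past it) with the exon length trend removed, Tgfbr3 again with upper-quartile factors, and 3 changes of sign near 0: Bmpr1a at -0.12 and Eng at -0.0429 with the length trend removed, and Eng at -0.0044 with upper-quartile factors. The 2-fold rule left 8 members higher in place of 15. The members' mean was 0.23 in place of a median of 0.43. With a minimum of 5 CPM the receptors' median was 0.10 in place of -0.06 and that of the co-receptors 0.0445 in place of -0.29, since fewer genes were left. Without members that overlap another gene the BMP ligands' median was -0.43 in place of -0.60. With the length trend removed the medians were -0.21 for receptors, 0.82 for nuclear co-repressors and 0.41 for ubiquitin ligases. They were -0.85 for target genes, 0.67 for feedback genes and 0.59 for latent TGF-beta binding proteins, the last in place of 0.88. Ltbp1 was then at 0.76 and Ltbp2 at 1.095, and each still passed the rule. The cause of the trend was not tested. With upper-quartile factors the target genes' median was -1.11. Depth limits Bmp2, Bmp7, Acvrl1, Tgfbr3 and the 5 members that were not measured.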

Other observations

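Of 24 other regulators that act on receptors and SMADs inside the cell, all measured, 5 were higher and 2 lower in the knockdown library. The same rule called 15.3% of all measured genes higher and 12.8% lower. The median log2 ratio of the regulators was 0.23. Dab2, an adaptor of TGF-beta receptor trafficking, was the highest, at 25.0 CPM in the knockdown library against 7.83 CPM in the control library (log2 1.67, interval 1.34 to 2.02). Nedd4l, a ubiquitin ligase that acts on SMAD2 and SMAD3, was the lowest, at 135 CPM against 420 CPM (log2 -1.63, interval -1.70 to -1.56). The abundant Fkbp1a, which binds type I receptors, stood at 0.04, and Tob1, which dampens BMP signalling, at -0.72. Pmepa1, a TGF-beta target that withholds SMADs from receptors, named after its values were seen, was at 66.6 CPM against 32.9 CPM (log2 1.02).

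Nuclear partners of SMADs were measured in 13 of 15 cases, with 4 higher, 0 lower and a median of 0.43. Shares over all measured genes were 15.3% higher and 12.8% lower. Snai1, 1 of the 4 higher genes, is also counted among the TGF-beta targets above. Runx1, a DNA-binding partner, had the highest log2 ratio, 1.35, at 35.6 CPM in the knockdown library against 14.0 CPM in the control library, a ratio of 2.55 (2.14 to 3.06). The acetyltransferase Ep300 was at 0.54 and Jun, the most abundant of the list by the mean of both libraries, at -0.09, and Snai2 was the lowest at -0.31 (-0.72 to 0.10). None of these values has a replicate check.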
